A study of Marchantia polymorpha with 2 samples.

Results

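In a line of the liverwort Marchantia polymorpha that carries an inducible MpBELL1 transgene, 82 genes were read in the mock library and had no read after estradiol. They were chosen by their values: 0 normalized counts in estradiol and 10 or more in mock, with identifiers of the male sex chromosome (MapolyY) left out. The 82 genes are part of 16280 genes in the deposited table. Both values belong to the rule, so they are given as a description with no test.

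The estradiol library came from the gametophytic thallus, the flat haploid plant body, of plants with the genotype proEF1:MpKNOX2; proEF1:XVE>>MpBELL1, 72 h after transfer to medium with 5 µM 17-β-estradiol. The mock library came from the same tissue and genotype, sampled 72 h after transfer to mock medium. Both were grown from gemmae, the asexual propagules, for 10 days at 23°C under 24 h light. MpKNOX2 was driven by the constitutive EF1 promoter, so mock plants carried it too, and MpBELL1 was driven by XVE, an estrogen-responsive activator. Each group had 1 library, so no difference had a replicate check and no p-value across samples could be given. Plants without the transgenes and samples taken at 0 h were not analysed here, so estradiol itself and MpBELL1 cannot be told apart.

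KNOX and BELL are families of TALE homeodomain transcription factors whose proteins act as pairs. In green algae such as Chlamydomonas, a KNOX and a BELL protein contributed by opposite gametes pair in the zygote and switch on the diploid programme. In mosses, class II KNOX genes hold back the haploid body plan in the diploid sporophyte. The series title places these genes in secondary cell wall and pectin synthesis.

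In genes, 13103037 reads were counted in estradiol and 15495357 in mock. The value of 1 read was 0.995 normalized counts in estradiol, against 1.01 in mock. A count of 0 in estradiol allows up to 3 reads, or 2.99 normalized counts, and this limit covers counting error only. The deposited identifiers give a scaffold of the genome assembly and a gene number on it, with no gene name, product or length, so levels are not corrected for length. None of the 16280 matched the reference table, so the thallus label could not be checked against marker genes. For the same reason the roles of the 82 genes and their sequences are not given, and only the 2 with the highest mock levels are named by identifier.

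Most of the 82 genes had low levels in mock, and a few had high ones. In bulk tissue, fewer cells of a type and less RNA per cell cannot be told apart. Mapoly0193s0013.1.v3.1 was highest, at 0 normalized counts in estradiol against 1469.5 in mock (1452 reads, exact Poisson 95% interval 1395 to 1547 normalized counts). Set against the limit of 3 reads, it was at least 492-fold lower in estradiol. This bound and those below take the mock level as read and leave out its counting error. Mapoly0098s0056.1.v3.1 followed with 0 in estradiol against 935 in mock (interval 876 to 997), at least 313-fold lower. The next gene in rank lies on the same scaffold as the first and had 0 in estradiol and 541 in mock, at least 181-fold lower. These 3 genes held 50.8% of all mock counts of the 82 genes. They were also the only ones of the 82 with a bound of 100-fold or more.

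The other genes formed a long low tail. Another 5 genes had 0 in estradiol and between 112 and 246 normalized counts in mock, 9 had between 50 and 100, 26 had between 20 and 50, and 39 had under 20. The mock median of the 82 was 20.7 normalized counts, which sets the median bound at 6.95-fold lower. The lower 41 genes together held 9.88% of the mock counts of the 82. All 82 summed to 5795 normalized counts in mock, or 0.0370% of that library. The bound reached 10-fold for 24 genes and 4-fold for 69. Among all genes read in mock at 10 normalized counts and above, 9.31% passed 4-fold in that direction by this measure, but the rule fixes the direction of the 82, and nothing is read from their count. For the 8 genes with 10 mock reads, the lowest number the rule admits, the bound was 3.39-fold. Their mock level had a Poisson interval of 4.85 to 18.6 normalized counts, which the bound leaves out.

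**Figure D1:**
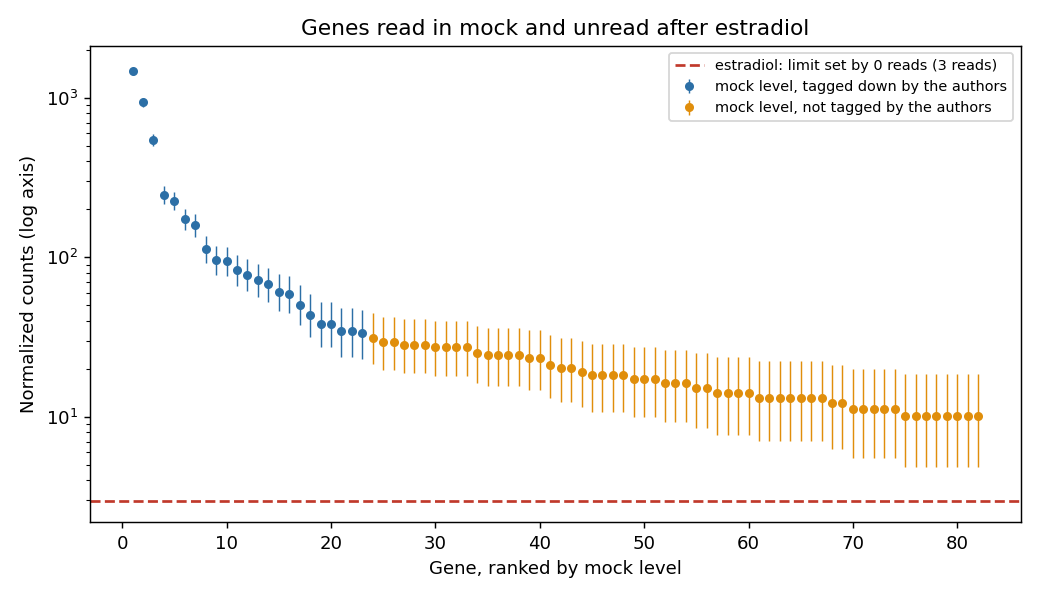
Mock level in normalized counts (log axis) of each of the 82 genes in rank order, with exact Poisson 95% intervals for counting error. The dashed line marks the 2.99 normalized counts that 0 estradiol reads allow. The 3 leading genes stand at 541 or more, and the colour change near rank 23 separates genes tagged down by the authors from those without a tag.

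The edge of the rule fell within a continuous range of values. Just inside it, 8 genes had 0 estradiol reads and 10 mock reads, and just outside it, 7 genes had 0 estradiol reads and 9 mock reads. On the other edge, 65 genes with a mock level of 10 or more had 1 estradiol read, 49 had 2 and 47 had 3. From 4 to 20 estradiol reads, the number of genes at each read count lay between 24 and 59. The 65 genes with 1 estradiol read had a median mock level of 24.3 and a highest of 399, so they covered much of the range of the 82. In all, 574 genes outside MapolyY had no estradiol read, of which 492 were under the mock threshold and 274 of these had 1 mock read.

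**Figure D2:**
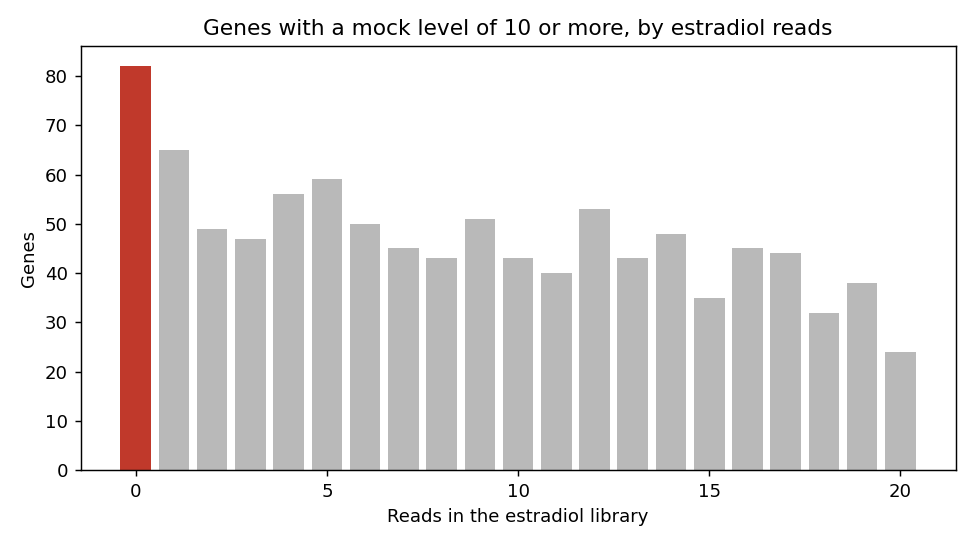
Number of genes (vertical axis) with each number of estradiol reads from 0 to 20 (horizontal axis), among genes with a mock level of 10 or more. The red bar holds the 82 unread genes, and the bars for 1, 2 and 3 reads hold 65, 49 and 47 genes.

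At mock levels of 10 or more, being unread was rare, and it was rarest in abundant genes. Of 12415 genes with a mock level of 10 or more, 0.660% were unread in estradiol. The share was 5.39% of 724 genes from 10 to 20 (exact Clopper-Pearson 95% interval 3.86 to 7.29) and 2.60% of 1000 genes from 20 to 50 (1.71 to 3.79). It was 0.923% of 975 genes from 50 to 100 (0.423 to 1.75) and 0.106% of 6605 genes from 100 to 1000 (0.0426 to 0.218). Mapoly0193s0013.1.v3.1 was the only unread gene among 3111 with 1000 or more. These intervals take genes as independent, although some unread genes were neighbours, and they hold no variation between libraries.

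With the libraries exchanged, 151 genes were unread in mock with 10 or more normalized counts in estradiol, 1.19% of 12660. Their share was 9.04% of 774 genes from 10 to 20 (7.12 to 11.3) and 4.64% of 1142 genes from 20 to 50 (3.50 to 6.03). No gene of 2938 with an estradiol level of 1000 or more was unread in mock, which allows a share of up to 0.102%. The threshold of 10 normalized counts is 10 reads in mock and 11 in estradiol. The estradiol library was the shallower, at 13103037 reads against 15495357.

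**Figure D3:**
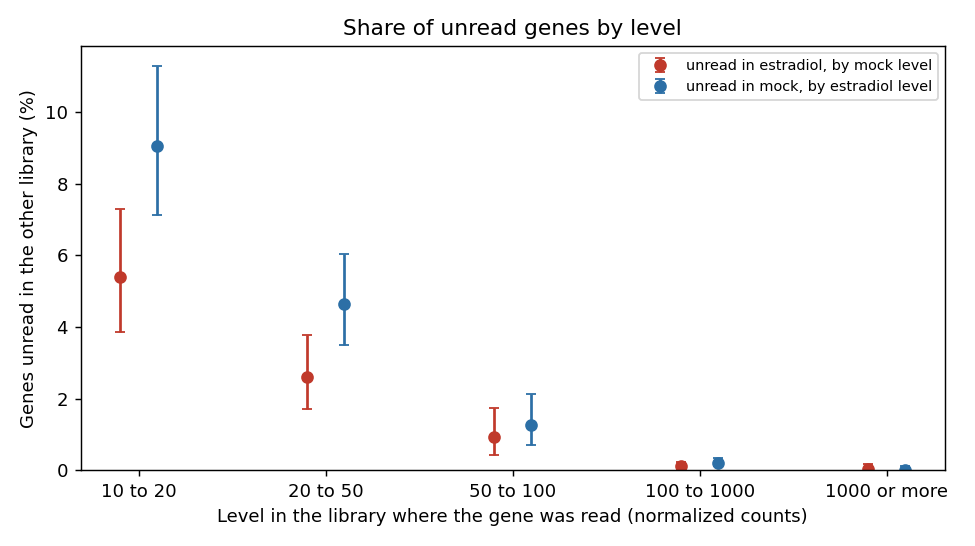
Percent of genes unread in estradiol by their mock level (red) and unread in mock by their estradiol level (blue). Bars are exact 95% binomial intervals that take genes as independent and hold no variation between libraries. Both shares fall with level, and the red points lie under the blue ones below 50 normalized counts, at 5.39% and 2.60% against 9.04% and 4.64%.

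The authors' deposited table tagged 23 of the 82 genes as down (28.0%) and left 59 without a tag, where 13.4% of all 16280 genes carried that tag. The tag comes from the same libraries as the rule, and nothing is read from that share. In the authors' deposited table the division followed the mock level: the tagged genes had 33.4 normalized counts or more in mock, and those without a tag had 31.4 or less. All 82 had 0 in estradiol by the rule, so only their mock levels differed. The probability score of the authors' deposited table was 0.894 for the highest gene without a tag and 0.903 for the lowest tagged one, on either side of 0.9. The log2 ratios in the authors' deposited table ran from -11.5 to -4.34 for the 82 genes, with a median of -5.37, and its genes tagged down had a median of -1.85. That table writes 0 as 0.5, which sets these ratios. Of the 20 lowest log2 ratios in the authors' deposited table, 10 belonged to the 82 genes. The rule chose the 82 by a value that enters these ratios, so nothing is read from that count.

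The 82 genes lay partly in groups and partly singly. They lay on 55 scaffolds, of which 40 held 1 of them and 15 held 2 or more. The 4 scaffolds with the most, Mapoly0006, Mapoly0012, Mapoly0161 and Mapoly0193, together held 19 (23.2%). In that order they held 200, 132, 25 and 18 of the 12415 genes with a mock level of 10 or more. Gene numbers were read as the order along the scaffold, an assumption that was not tested. At the next lower and next higher numbers of the 82 genes, 110 positions held a listed gene, and at 22 of these (20%) it was another of the 82. Over all genes outside MapolyY, 0.396% of such positions held one of the 82. In all, 19 of the 82 (23.2%) had another of the 82 at an adjacent number, 23 within 2 numbers and 26 within 5. For the 151 genes unread in mock, 13 (8.61%) had another of that kind at an adjacent number. Neighbours may share reads if they are similar copies, and the way the authors counted reads that match several genes, or used strand, is not stated in the labels or headers.

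The longest stretch without an estradiol read was on Mapoly0006. All 8 listed genes with numbers from 158 to 166 had 0 estradiol reads, and 6 of them are among the 82. Their mock levels were 12.1 at number 158, 28.3 at 161, 71.9 at 162, 17.2 at 163, 227 at 164 and 34.4 at 165. The 2 others, at 160 and 166, had 2.02 and 6.07 normalized counts in mock, under the threshold of the rule. Nearby genes outside the stretch were read in estradiol: the gene at 167 had 1139 in estradiol and 453 in mock, and the gene at 155 had 560 in estradiol and 645 in mock. Others were lower in level, such as the gene at 156 with 67.7 in estradiol and 25.3 in mock. The gene at 157, at the near edge, was at 1 read in each library.

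On Mapoly0012 all 5 listed genes from 63 to 70 were unread in estradiol, and all 5 are among the 82. Their mock levels lay close together, between 14.2 and 27.3 normalized counts. Both flanking genes were also much lower in estradiol without reaching 0. The gene at 62 had 0.995 in estradiol (1 read) and 30.4 in mock, and the gene at 71 had 7.96 in estradiol and 312 in mock. Past these, the gene at 74 had 3913 in estradiol and 1699 in mock.

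Mapoly0161 carried 4 of the 82, at 33, 34, 38 and 39, with mock levels of 13.2, 13.2, 31.4 and 10.1. Between them, the gene at 35 had 0 in estradiol and 3.04 in mock, and the gene at 36 had 0.995 in estradiol and 32.4 in mock. All 6 listed genes from 33 to 39 thus had at most 1 estradiol read. The gene at 32, next to the first, had 354 in estradiol and 643 in mock.

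Mapoly0193 held the genes of ranks 1, 3 and 6 among the 82. Its 4 genes of the 82, at 7, 13, 15 and 16, had 67.8, 1469.5, 541 and 173 normalized counts in mock and held 38.9% of the mock counts of all 82. Most genes of this scaffold were lower in estradiol than in mock. Of its 24 listed genes, 14 stood 2-fold or further below mock, and 1 stood as far above (pseudocount 10, mean of 10 or more). Those 14 were the 4 genes of the 82 and the genes at 5, 8, 9, 10, 11, 14, 17, 20, 21 and 24. The gene at 8 had 32.8 in estradiol and 668 in mock, the gene at 14 had 28.9 in estradiol and 648 in mock, and the gene at 17 had 11.9 in estradiol and 85.0 in mock. The gene at 12, beside the highest gene, had 0 in estradiol and 1.01 in mock. Fewer genes were higher in estradiol. The gene at 23 had 2373 in estradiol and 287 in mock. The gene at 6, next to the gene at 7, had 15.9 in estradiol and 2.02 in mock, under the mean filter. The genes at 3 and 22 were also above their mock levels in estradiol, with 1186 in estradiol against 885 in mock and 57.7 in estradiol against 30.4 in mock.

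**Figure D4:**
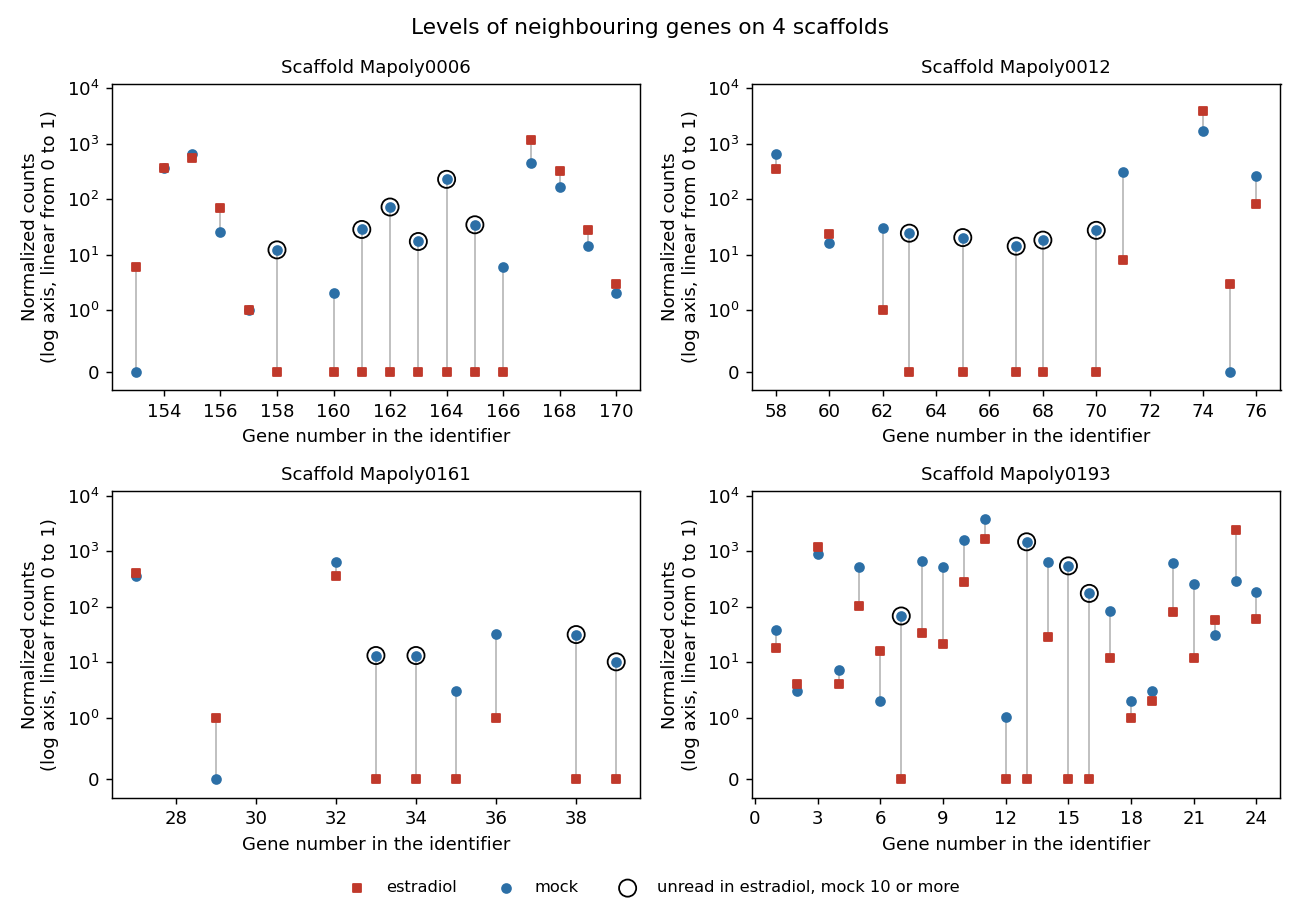
Normalized counts in estradiol (red squares) and mock (blue circles) of each listed gene by its gene number on 4 scaffolds, on a log axis that is linear from 0 to 1. Rings mark genes of the 82, and grey lines join both values of a gene. On Mapoly0006 and Mapoly0012 the ringed genes sit in unbroken stretches at 0 in estradiol, while on Mapoly0193 genes read in both libraries lie among them.

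Shorter groups were found on 4 more scaffolds. At 115 to 117 on Mapoly0071, 3 listed genes in a row had no estradiol read, 2 of them among the 82 with 16.2 and 83.0 normalized counts in mock. Mapoly0053 had an adjacent pair at 48 and 49, with 13.2 and 16.2 in mock. Mapoly0229 had a pair at 1 and 2, with 25.3 and 112 in mock, while the gene at 4 had 118 in estradiol and 121 in mock. On Mapoly0054, genes of the 82 at 124 and 128 (34.4 and 14.2 in mock) enclosed a gene with 0.995 in estradiol and 387 in mock and another with 5.97 in estradiol and 443 in mock. Counted in the order of listed genes, 8 unread stretches held 2 or more of the 82, and 23 genes (28.0%) lay in them. For the genes unread in mock there were 7 such stretches with 15 of the 151 genes (9.93%), and the longest had 4 listed genes.

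Genes numbered next to the 82, and not among them, were often lower in estradiol as well. There were 87 such genes, of which 11 were unread in estradiol and 6 unread in mock. Of all 16280 genes, the 82 included, 577 were unread in estradiol and 1240 in mock. A mean of 10 or more normalized counts over both libraries was reached by 58 of the 87. With a pseudocount of 10 added to each level, 21 of the 58 (36.2%) were at least 4-fold lower in estradiol, where 6.39% of all 12854 genes past the same filter were. At least 2-fold lower were 31 (53.4%, against 18.2% of all genes), and at least 2-fold higher were 6 (10.3%, against 15.0%). Their median log2 ratio was -1.14, and that of all genes was -0.03. These shares describe 1 library per group, and the neighbours were found through genes chosen for a low estradiol value in the same libraries.

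The same was seen beside genes that had no second one of the 82 on their scaffold. Their neighbours past the filter numbered 36, of which 12 (33.3%) were at least 4-fold lower and 2 at least 2-fold higher, with a median log2 ratio of -1.10. Some of these neighbours were more abundant in mock than the unread gene. The gene at 27 on Mapoly0159 had 557 in estradiol and 20575 in mock, in normalized counts. On Mapoly0008, next to the fourth-ranked gene (246 in mock), the gene at 169 had 1.99 in estradiol and 305 in mock. On Mapoly0203 the gene at 7 had 0.995 in estradiol and 290 in mock.

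Other genes of the 82 had no unread gene and no gene at least 4-fold lower (pseudocount 10, mean of 10 or more) beside them. Mapoly0098s0056.1.v3.1 lay between a gene with 1 estradiol read and 0 mock reads and a gene with 2 estradiol reads and 0 mock reads. At number 54 on its scaffold, however, a gene had 2.99 in estradiol and 307 in mock. The seventh-ranked gene, at 146 on Mapoly0022, had 159 in mock, and the genes beside it had 313 in estradiol and 182 in mock at 145 and 659 in estradiol and 752 in mock at 147. On Mapoly0048, next to a gene of the 82 with 20.2 in mock, the gene at 2 had 16414 in estradiol and 1366 in mock. Of the 73 genes of the 82 with a listed neighbour, 41 had at least 1 that was unread or at least 4-fold lower in estradiol by this measure, and 32 had none. An unread neighbour counted here at any mock level. The share of all genes with such a neighbour is not given, so nothing is read from the 41. The pseudocount leaves out low neighbours, such as the gene at 62 on Mapoly0012, and the 32 include genes with neighbours lower by less than 4-fold.

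**Figure D5:**
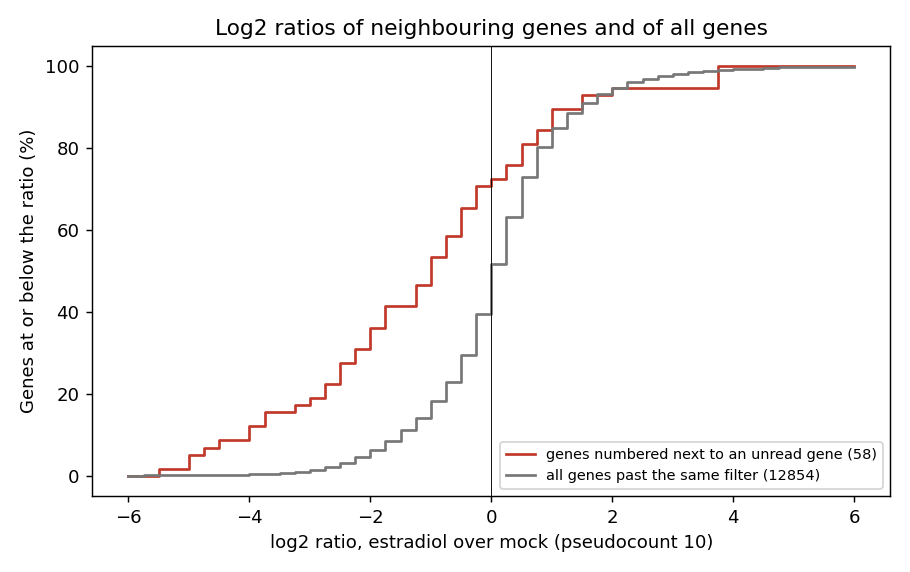
Cumulative percent of genes at or below each log2 ratio of estradiol over mock (pseudocount 10), for the 58 genes numbered next to one of the 82 (red) and for all 12854 genes past the same filter (grey). The red curve lies to the left, with 53.4% of genes at or below -1 against 18.2% of all genes.

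The 82 genes also included many on scaffolds with few listed genes. On scaffolds with at most 5 listed genes lay 10 of the 82 (12.2%), against 2.34% of the 12415 genes with a mock level of 10 or more and 5 of the 151 genes unread in mock (3.31%). Scaffolds with 1 listed gene held 6 of the 82 (7.32%, against 1.50%). The mock levels of these 10 genes ran from 10.1 to 95.1 normalized counts, with a median of 23.8. The gene number 1 was carried by 11 of the 82 (13.4%, against 2.60% of genes with a mock level of 10 or more), 4 of them on scaffolds with more than 5 listed genes. The part of short scaffolds in the lack of reads was not tested.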

How the data were processed

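Per the submitters' processing notes, reads went through FastQC, STAR and HTSeq; versions, genome build, strand and normalization method are not given in the sources used here. For each gene, the authors deposited normalized counts (a signal never below 0) in 1 estradiol and 1 mock library. Each value was a whole multiple of 1 step per library, to within 2.6e-05 reads, which gave the reads. The authors' deposited table of their comparison adds a log2 ratio, a probability score (a fraction from 0 to 1, not used as a p-value), a ranking score and tags, with 0 written as 0.5.

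From these, levels, bounds against the limit of 3 reads, exact 95% intervals, log2 ratios (pseudocount 10, mean of 10 or more) and gene-number neighbours were computed with Python 3.11.15, NumPy 2.4.6, pandas 2.3.3, SciPy 1.17.1 and Matplotlib 3.10.9. The code was tested on simulated data. The 82 genes, the thresholds and the alternatives were chosen with earlier results of these data known. By rule, 2 genes are named, those highest in mock. Of 18391 reference genes (assembly MpTak2_v7.1), 0 matched an identifier, so lists set by gene name were not analysed here. Coordinates and sequences are not given.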

Additional observations from a re-analysis of the deposited data

How the results depend on the processing

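No paired analysis was possible because there was 1 library per group, and no replicate could be left out. The number of genes unread in estradiol stayed at 82 with the threshold on reads or with MapolyY kept and was 74 under equal totals. It was 138, 43, 17 and 8 with mock thresholds of 5, 20, 50 and 100, and 147, 196 and 243 with up to 1, 2 and 3 estradiol reads allowed. The genes unread in mock numbered 159 under equal totals, 275, 81, 28 and 14 at the same thresholds in estradiol, and 254, 347 and 418 with up to 1, 2 and 3 mock reads, so they outnumbered the genes unread in estradiol under each setting tried in both directions. The tag of the authors' deposited table covered 16 of the 82 at a probability of 0.95 or more and 7 at 0.99 or more. At least 4-fold lower were 24 genes with a pseudocount of 10 and 7 with 50, both of which shrink the ratios of low genes. All 82 passed with a pseudocount of 1 or in the authors' deposited table. The rule fixes that outcome in advance, so nothing is read from it. The median mock level was 34.4 with a mock level of 20 or more, 17.2 rescaled to the estradiol total and, in settings chosen after seeing the data, 19.7 without Mapoly0193 and 24.3 with the highest gene per scaffold. Alternatives for the neighbours at least 4-fold lower were also chosen after seeing the data: 21 became 12 beside lone genes (fewer genes counted), 11 with a pseudocount of 50, 24 with 1, 21 without the filter and 18 under equal totals. Counts by gene order, including the 22 genes with another of the 82 next in the listed order (also chosen after seeing the data), stayed within 1.5 times of 19. For the 39 genes with under 20 mock counts, depth limits the bound to 6.44-fold or less.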

Other observations

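The 151 genes unread in mock lay on 102 scaffolds, 27 of which also held one of the 82, with at most 5 on 1 scaffold. Of all 576 scaffolds, 55 held one of the 82. Scaffolds differ in their number of listed genes, so nothing is read from the 27. Of the 82, 0 had one of the 151 within 2 numbers, and 5 (6.10%) had one within 5 numbers. Of the 12415 genes with a mock level of 10 or more, 2.61% had one within 2 numbers and 6.58% within 5, so the share within 5 was close to that of all such genes. On Mapoly0020, 4 listed genes from 78 to 82 had no estradiol read (28.3 normalized counts in mock for the first, among the 82, and 1.01 for each of the others). They were followed by genes at 83 and 84 with 30.8 and 54.7 in estradiol, against 0 in mock. The 151 genes had a median of 21.9 normalized counts in estradiol and a highest of 724, with 14 at 100 or more, and the authors' deposited table tagged 47 of them as up. That tag comes from the same libraries that chose the 151, and nothing is read from its count.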
